A study of Mus musculus with 16 samples.

Results

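Dexamethasone (Dex) was compared with its ethanol vehicle (EtOH) in macrophages that received no lipopolysaccharide (LPS), over all genes detected in the 6 h experiment. The members were the 2 Dex arrays and the 2 EtOH arrays of that experiment, chosen by their sample labels, 4 of the 16 arrays of the series. They were read over 7796 genes. In the tested arm, bone marrow-derived macrophages were kept overnight in 1 µM Dex, and in the other in EtOH, which the labels also call unstimulated. The cells of both arms came from 10 weeks old male wildtype c57Bl6/J mice. The experiment also held Dex followed by 6 h of LPS, and EtOH followed by 6 h of LPS, 2 arrays each, which were used for the spread and as a second setting for Dex. The 3 h experiment repeated the 4 treatments with 3 h of LPS. The labels name the arrays of a group technical replicates and give no number of cultures or animals, so every p-value here measures only the spread between arrays.

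Dex is a synthetic ligand of the glucocorticoid receptor, a nuclear receptor that chaperones hold in the cytosol until a ligand binds. The occupied receptor moves to the nucleus, where it raises some genes through glucocorticoid response elements and lowers others, many of them targets of the inflammatory factors NF-kB, AP-1 and the interferon regulatory factors. In macrophages glucocorticoids are known for damping cytokine production and for raising receptors that take up dying cells.

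Levels are normalized signals, which are bead intensities after background correction and quantile normalization. Differences are Dex minus EtOH on the log2 scale ± the SE of the limma fit, with n = 2 arrays per arm. That SE draws on the spread within all 4 groups of the 6 h experiment and on that of the other genes, not on the 2 arms alone. Calls needed 2-fold or more together with a limma adjusted p below 0.05, and "rose" and "fell" are used only of called genes. Probes detected per array numbered 10407 to 11281 of 25697, the number of arrays limits the precision, and the median residual SD was 0.202. Of 10 macrophage markers 9 were on the array and 8 were detected on all 4 arrays, with summed signals of 190291 and 176403 on the Dex arrays, against 168131 and 176079 on the EtOH arrays. None of the T cell or mast cell markers on the array was detected. 1 marker each of monocytes (Plac8), B cells (Cd79b), NK cells (Prf1), megakaryocytes (Pf4) and fibroblasts (Dcn) was detected on all 4 arrays. Pf4 was bright, at 20528 and 17639 with Dex, against 15833 and 16463 with EtOH. Dendritic, erythroid and endothelial cells had 1 marker each that was detected on some of the 4 arrays but not on all. Of 10 neutrophil markers 8 were detected on all 4 arrays (summed signal 57636 and 55296 on the Dex arrays, against 56660 and 62815 on the EtOH arrays), and Cxcr2, a defining receptor of neutrophils, was not detected. The Dex arrays correlated at 0.984 with each other (Pearson, across probes, which are not independent) and the EtOH arrays at 0.988, while Dex replicate 2 correlated with the EtOH arrays at 0.980 and 0.981 and Dex replicate 1 at 0.963 and 0.970. The LPS pair, at 0.993, and the Dex plus LPS pair, at 0.995, were closer than the Dex and the EtOH pair, and enter the same SE. In bulk RNA, fewer cells of a type and less RNA per cell cannot be told apart.

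2 further sets of deposited values carry the same treatment labels and showed no such Dex response. In the cubic spline table of the 6 h samples, Fkbp5, a glucocorticoid-induced co-chaperone, had signals of 426 and 414 where labelled Dex, against 414 and 464 where labelled EtOH. Ranks in that table correlated at only 0.885 to 0.923 with those of the same-labelled unnormalized arrays, and it gave 0 calls with limma, with 689 genes at an unadjusted p under 0.05. On the 3 h arrays Fkbp5 had signals of 253 and 237 where labelled Dex, against 262 and 229 where labelled unstimulated, and Tnf, the tumour necrosis factor gene, had 62261 and 60458 where labelled Dex, against 63692 and 62661 where labelled unstimulated. The 3 h labels gave 8 higher and 2 lower genes (0.103% and 0.0257% of those tested), none of them called in the same direction in the 6 h experiment. All values below come from the unnormalized 6 h table unless another is named.

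Dex raised 125 genes (1.6% of those tested) and lowered 148 (1.9%), together 3.5%. By adjusted p alone 245 were higher (3.14%) and 278 lower (3.57%). The Dex arrays and the EtOH arrays did not overlap for any of these 273 genes, and over all genes 23.4% were higher without overlap and 26.2% lower without overlap. Lack of overlap in a called gene named below is thus a description and adds no support to its call. Fitted differences of at least 4-fold were found for 12 raised and 8 lowered genes. For 36 called genes, 25 raised and 11 lowered, the probe was not above background on either array of the dimmer arm or saturated on both arrays of the brighter one. The fold of such a gene is a bound and is written "at least". The median difference over all genes was -0.01. Without Dex replicate 1, 76 genes were called higher and 97 lower, and without Dex replicate 2 there were 275 and 324. When arrays were scaled to equal medians instead of equal quantiles, the median of all genes moved to 0.27 and the calls became 407 higher and 64 lower, 86.4% of them higher against 45.8%. The 125 raised genes were all called higher there too, and 64 of the 148 lowered ones were called lower. Of the 96 called genes named here and in the closing section 15 lost their call under that scaling, all of them lowered ones: Bcl2, Camp, Cd86, Dbp, Egr1, Ephx1, Gstm2, Ltf, Mmp9, Mterf1b, Nfkbib, Nr1d2, Rgs2, Rims3 and Slc40a1. Without background correction 33 of the 96 lost it, and in the authors' processed values 33. Raised genes that lost it in both were Acadl, Anln, Bmf, Ccl6, Cd55, Cetn4, Ddit4, Dgat2, Itga6, Kat2b, P2ry12, Stab1, Thbs1, Tk1 and Tnfsf14. Lowered genes that did were Abcc1, Bcl2, Camp, Dbp, Egr1, Ephx1, Gbp5, Gsta2, Mmp9, Mterf1b, Nfkbib, Nr1d2, Rgs2, Rims3, Serpinb2 and Treml4. Cd28 and Ptpn14 lost it in the first only, and Ccl9 and Zfp658 in the second only. With only the 4 Dex and EtOH arrays normalized and fitted, 57 genes were called higher and 69 lower, and 27 of the 96 lost their call.

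**Figure D1:**
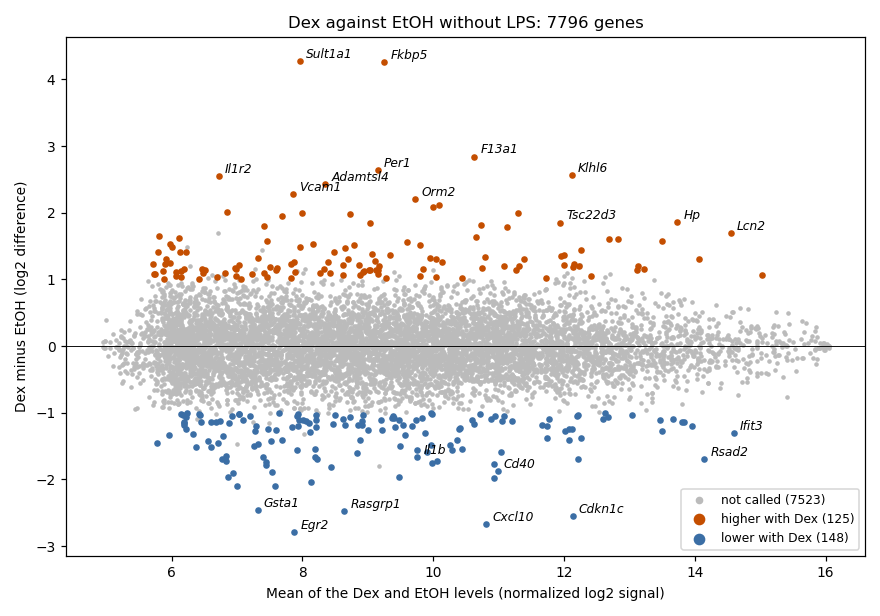
Dex minus EtOH log2 difference (y axis) against the mean normalized log2 level of both arms (x axis) for 7796 genes, 1 point per gene. The 125 genes called higher are orange and the 148 called lower are blue. Sult1a1 is highest at 4.28, a value fitted against a probe not above background with EtOH. Fkbp5 is next at 4.26, and Egr2 is lowest at -2.79.

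Of 28 classical glucocorticoid-induced genes 22 were tested, of which 9 rose and Rgs2 fell (45.5% called, beside 3.5% of all genes). The median difference of the 22 was 0.45. Fkbp5, whose protein binds the receptor complex and lowers its affinity for ligand, had signals of 2709 and 2632 on the Dex arrays, against 130 and 150.2 on the EtOH arrays. It was 19.1-fold higher (4.26 ± 0.17, adjusted p = 1.59e-06), and the gap between the arms was far wider than that within either. Per1, a repressor of the circadian clock, had signals of 1932 and 1036 on the Dex arrays, against 184 and 282 on the EtOH arrays (2.63 ± 0.32, adjusted p = 0.00146). Its arms did not overlap, although the Dex pair was uneven. Il1r2, the decoy receptor of interleukin 1, had signals of 269.5 and 243 with Dex, against 41.5 and 46.0 with EtOH, where it was not above background, and was at least 3.57-fold higher (adjusted p = 5.16e-05). Klf9, a zinc finger repressor, read 2371 and 1896 with Dex, against 551 and 449 with EtOH (2.09 ± 0.32). Tsc22d3, which encodes the glucocorticoid-induced leucine zipper protein, read 7708 and 7287 with Dex, against 2016 and 2135 with EtOH (1.85 ± 0.20). In each of these genes both Dex arrays stood above both EtOH arrays, as in every raised gene and in 23.4% of all genes.

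Dusp1, a phosphatase that switches off MAP kinases, had signals of 19494 and 20596 with Dex, against 6606 and 6896 with EtOH (1.57 ± 0.17, adjusted p = 6.91e-04). It was the only one of 9 tested MAP kinase phosphatases to be called (11.1%, beside 3.5% of all genes). Mertk, a receptor for apoptotic cells, rose by 1.78 ± 0.17, and Lcn2, the siderophore-binding lipocalin, by 1.69 ± 0.20. Ddit4, an inhibitor of the growth kinase mTORC1, differed by 1.18 ± 0.25 but lost its call without any 1 of Dex replicate 1, EtOH replicates 1 and 2 and Dex plus LPS replicates 1 and 2. The 12 members that were not called ranged from -0.52 for Hif3a, which was not above background with Dex, to 0.55 for Nfkbia, which encodes the NF-kB inhibitor IkB alpha and read 3818 and 3746 with Dex, against 2741 and 2444 with EtOH (adjusted p = 0.0828). Sgk1, a kinase of ion transport (-0.19 ± 0.17), Zfp36, which destabilises cytokine transcripts (-0.39 ± 0.17), and Anxa1, the annexin linked to steroid action (-0.24 ± 0.20), had values slightly below their EtOH levels. Rgs2, a brake on G protein signalling, fell with signals of 65.2 and 79.9 on the Dex arrays, against 160 and 154 on the EtOH arrays (-1.12 ± 0.18, adjusted p = 0.00652), a call that was lost without Dex replicate 1.

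**Figure D2:**
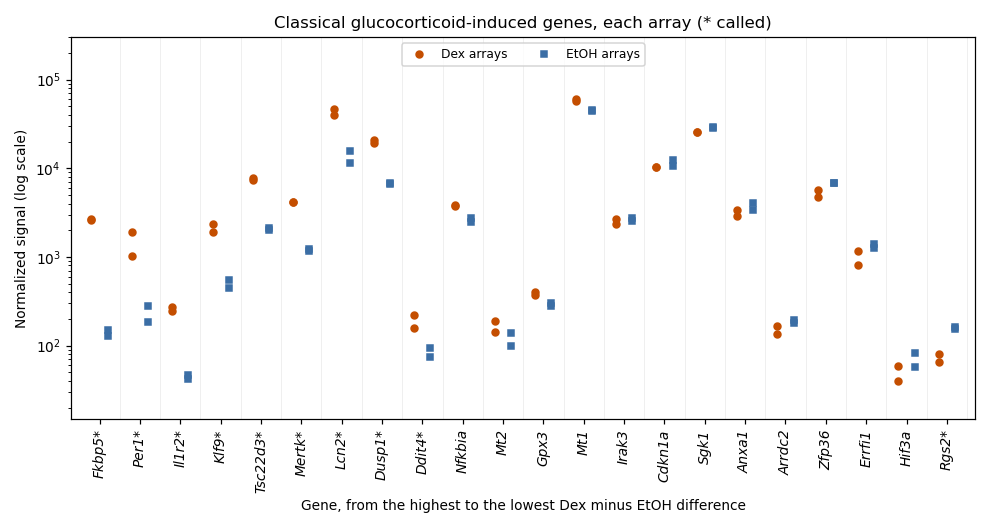
Normalized signal on a log axis for the 22 tested classical glucocorticoid-induced genes, with the 2 Dex arrays as orange circles to the left of the 2 EtOH arrays as blue squares. An asterisk marks a called gene. The arms are widest apart for Fkbp5 and do not overlap for any of the 9 raised genes, which holds for every called gene.

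Of the receptor's own machinery, Fkbp5 was the only called member of 14 tested (7.14%, beside 3.5% of all genes). The other 13 lay between -0.34 for the deacetylase gene Hdac2 and 0.51 for the co-chaperone gene Fkbp4. Fkbp4 had 3244 and 2510 on the Dex arrays, against 2260 and 1772 on the EtOH arrays (adjusted p = 0.151). The probe for the receptor gene itself, Nr3c1, was not above background in either arm, so no fold is given. Hsd11b1, the enzyme that regenerates active glucocorticoid, differed by -0.12 ± 0.18. Among 10 clock genes 3 were called (30%, beside 3.5% of all genes). Per1 rose, and Dbp (-1.18 ± 0.27), an output activator of the clock, and Nr1d2 (-1.02 ± 0.25), a clock repressor, fell. Dbp lost its call without any 1 of Dex replicate 1, the EtOH arrays and the LPS arrays, and Nr1d2 without any 1 of Dex replicate 1, EtOH replicate 2 and the 4 arrays with LPS. Klf9 was the only called member of 7 Kruppel-like factors (14.3%), and Klf2 and Klf4, which also act in macrophages, differed by 0.18 ± 0.20 and 0.08.

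Outside these lists Sult1a1, a sulfotransferase for phenols, had signals of 930 and 1299 on the Dex arrays, against 57.0 and 56.2 on the EtOH arrays, where it was not above background, and was at least 15.3-fold higher (adjusted p = 2.88e-06). F13a1, the catalytic subunit of coagulation factor XIII, had signals of 4281 and 4201 with Dex, against 472 and 741 with EtOH (7.17-fold, adjusted p = 1.28e-04). Klhl6, a Cullin 3 adaptor known from B cells, had 10254 and 11463 with Dex, against 1815 and 1838 with EtOH (5.94-fold, adjusted p = 5.16e-05). In all 3 genes both Dex arrays stood above both EtOH arrays, from EtOH levels that ran from background for Sult1a1 to well above it for Klhl6. Adamtsl4, a secreted glycoprotein of the extracellular matrix, rose by 2.43 ± 0.18, and Jdp2, a repressor that pairs with AP-1 proteins, by 2.11 ± 0.18. Serinc3, a multipass membrane protein (1.99 ± 0.22), Mmgt1 (1.99 ± 0.30), the centrin gene Cetn4 (2.01 ± 0.35) and the small GTPase gene Rab15 (1.98 ± 0.23) rose too. Mmgt1 was uneven, at 727 and 358 with Dex, against 111 and 148 with EtOH, and Cetn4 lost its call without Dex replicate 1 or EtOH replicate 1.

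Acute-phase and secreted defence proteins rose in 6 of 22 cases and fell in 2 (36.4% called, beside 3.5% of all genes). Their median was 0.21, and -0.04 in the authors' processed values. Orm2, an acid glycoprotein of the acute phase, had signals of 1996 and 1639 on the Dex arrays, against 359 and 432 on the EtOH arrays (2.20 ± 0.19, adjusted p = 2.90e-04). Hp, the haemoglobin scavenger haptoglobin, had 24096 and 27895 with Dex, against 6746 and 7615 with EtOH (1.85 ± 0.19). Lcn2 had 46212 and 40267 with Dex, against 15708 and 11364 with EtOH. Hp and Lcn2 were already bright in EtOH cells and Orm2 was dimmer, and the arms of all 3 did not overlap. Chil3, a chitinase-like lectin (1.60 ± 0.23), and Orm1 (1.20 ± 0.17) were the other members that rose beside F13a1. Camp, the cathelicidin peptide gene (-1.28 ± 0.19), and Ltf, the iron binder lactoferrin (-1.13 ± 0.21), fell, but neither was called under median scaling. Ltf also lost its call without Dex replicate 1 or EtOH replicate 1, and with the mean of its detected probes (-0.90). Several of these genes are also stored in neutrophil granules. Among the 8 detected neutrophil markers Mmp8 rose, and Camp and Ltf fell. The calprotectin genes S100a8 and S100a9 differed by 0.03 ± 0.17 and -0.29 ± 0.18. The part of neutrophil RNA in these differences was not tested.

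Receptors for chemoattractants rose in 3 of 11 cases (27.3% called, beside 3.5% of all genes), with a median of 0.34. Cxcr4, the receptor of the homing chemokine CXCL12, had signals of 1959 and 1257 with Dex, against 604 and 659 with EtOH (1.31 ± 0.24, adjusted p = 0.0122). P2ry12, an ADP receptor, had 246 and 260 with Dex, against 103 and 100.1 with EtOH (1.32 ± 0.21, adjusted p = 0.00652). P2ry13, another ADP receptor, had 1072 and 1743 with Dex, against 656 and 574 with EtOH (1.16 ± 0.24, adjusted p = 0.0198). The arms of all 3 were apart, P2ry12 most evenly. P2ry12, however, lost its call without background correction (0.73) and in the authors' processed values (0.59). Cxcr4 lost its call without Dex replicate 1 or EtOH replicate 1, and P2ry13 without any 1 of Dex replicate 2, the EtOH arrays and Dex plus LPS replicate 1. Fpr2, the formyl peptide receptor that also binds annexin A1, was bright in both arms and differed by 0.21 ± 0.18.

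Genes for the uptake of apoptotic cells rose in 5 of 18 cases and fell in 1 (33.3% called, beside 3.5% of all genes). Their median was 0.39. Mertk had signals of 4181 and 4113 on the Dex arrays, against 1242 and 1177 on the EtOH arrays (3.43-fold, adjusted p = 5.54e-04). Havcr2, the phosphatidylserine receptor TIM-3, had 1229 and 888 with Dex, against 420 and 390.3 with EtOH (1.37 ± 0.21, adjusted p = 0.005). Both are receptors, and both kept their calls without any 1 array. C1qc, a chain of complement C1q that bridges to dying cells, differed by 1.30 ± 0.26, Thbs1, a bridging thrombospondin, was at least 1.33-fold higher, and the scavenger receptor gene Stab1 differed by 1.03 ± 0.25. Mfge8, the milk fat globule bridge, differed by -1.15 ± 0.26. C1qc lost its call without Dex replicate 1 or EtOH replicate 2, Thbs1 without Dex replicate 1 or either EtOH array, Stab1 without any 1 of Dex replicate 1, EtOH replicate 1 and the 4 arrays with LPS, and Mfge8 without any 1 array other than Dex replicate 2. The other C1q chains C1qa (0.37 ± 0.17) and C1qb (0.33 ± 0.17) and the bridging ligand gene Gas6 (0.76 ± 0.28) were not called. Axl, the relative of Mertk, differed by -0.62 ± 0.25.

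Of 14 complement genes tested 14.3% were called, beside 3.5% of all genes. Outside C1q the 1 further call was Cd55, the decay-accelerating factor. It was at least 1.70-fold higher (116.9 and 126.6 with Dex, against 31.1 and 50.9 with EtOH, adjusted p = 0.00339). Of 18 scavenger and C-type lectin receptors Stab1 rose and 2 fell (16.7% called, beside 3.5% of all genes). Clec7a, the beta-glucan receptor Dectin-1, had 546 and 628 with Dex, against 1805 and 2095 with EtOH (-1.73 ± 0.17, adjusted p = 5.88e-04), with no overlap. Treml4, a TREM-like receptor, fell by 1.42 on the log2 scale (SE 0.22). The mannose receptor gene Mrc1 was uneven, at 2576 and 895 with Dex, against 720 and 665 with EtOH, and was not called (1.13 ± 0.38, adjusted p = 0.105). Of 17 integrins and adhesion molecules 2 rose (11.8% called, beside 3.5% of all genes). Vcam1, an adhesion molecule for alpha4 integrins, had 639 and 406 with Dex, against 100.4 and 109 with EtOH (2.29 ± 0.22, adjusted p = 5.48e-04), and Itga6, an integrin chain for laminin, was at least 1.41-fold higher, a call lost without Dex replicate 1 or EtOH replicate 1. Tgfbr2, a receptor chain for TGF-beta, had 5624 and 7215 with Dex, against 2419 and 2578 with EtOH (1.35 ± 0.24, adjusted p = 0.00972). It was the only call among 22 growth factor receptors and lineage factors (4.55%, near the 3.5% of all genes). That call was lost without EtOH replicate 1.

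Interferon-stimulated genes fell in 12 of 39 cases and none rose (30.8% called, beside 3.5% of all genes). Their median was -0.60, and 37 of the 39 were below 0, where 3981 of all 7796 genes were. Cxcl10, the chemokine that draws CXCR3-bearing T cells, had signals of 526 and 970 on the Dex arrays, against 5074 and 4034 on the EtOH arrays (6.33-fold lower, adjusted p = 5.88e-04). Rsad2, the antiviral enzyme viperin, had 10359 and 9774 with Dex, against 34369 and 30885 with EtOH (-1.70 ± 0.16, adjusted p = 5.54e-04). Isg15, a ubiquitin-like modifier, had 529 and 587 with Dex, against 1980 and 1406 with EtOH (-1.58 ± 0.21). All 3 were well above background on the EtOH arrays, which had received no LPS. Oasl1, a regulator of interferon production, fell by 1.69 on the log2 scale (SE 0.17), and Mx1, an antiviral GTPase, by 1.55 (SE 0.20). Ifit3 and Ifit2, which bind viral RNA, differed by -1.30 ± 0.20 and -1.27 ± 0.27. Gbp5, a guanylate-binding protein of inflammasome control, read 62.9 and 53.0 with Dex, where it was not above background, against 174 and 157 with EtOH and was at least 2.68-fold lower (adjusted p = 0.00183). Ifit2 lost its call without any 1 array other than Dex replicate 1. The other 4 called members lay between -1.24 and -1.01.

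Not all interferon genes moved. Oasl2 (0.05 ± 0.17), Usp18 (-0.43 ± 0.16), Irgm1 (-0.32) and Ifitm3, which was saturated, were not called although they were bright, and the interferon-induced factor gene Irf7 differed by -0.09 ± 0.22 with overlapping arms. None of 23 tested interferon, IRF and STAT genes was called, with a median of -0.14 that was 0.07 under median scaling, and 1948 of the 7796 genes at an unadjusted p under 0.05 in the same limma fit. Ifnb1, the interferon beta gene, had 43.0 and 34.7 with Dex, where it was not above background, against 62.7 and 81.0 with EtOH (at least 1.16-fold lower, adjusted p = 0.0253), and was under the fold needed for a call. Under median scaling 9 of the 39 interferon-stimulated genes were called lower, with a median of -0.30. In the authors' processed values 10 were, with a median of -0.52.

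**Figure D3:**
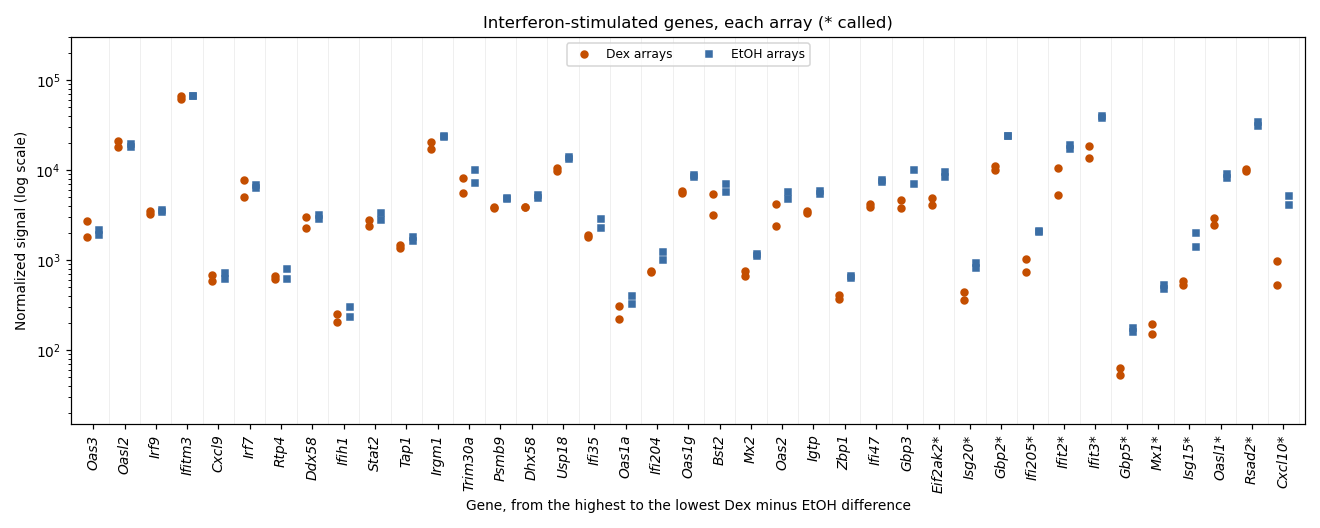
Normalized signal on a log axis for the 39 tested interferon-stimulated genes, with the 2 Dex arrays as orange circles to the left of the 2 EtOH arrays as blue squares. An asterisk marks a called gene. The 12 called genes are at the right, and Cxcl10 has the widest gap.

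The interferon-stimulated response element, to which interferon regulatory factors bind, holds a core of GAAA, any 2 bases and GAAA again. The core, on either strand, was found in 72.7% of the 11 called interferon-stimulated genes that have a promoter window in RefSeq (GRCm38.p6, 250 bases before to 50 after the start), and in 60% of 20 members that were not called. It was found in 14.8% of the 115 lowered genes with a window, 8 of the 17 being these list members, in 1.98% of the 101 raised ones, in 4.11% of the 6449 tested genes with a window and in 3.44% of all 32851 windows. A match is a description and shows no binding. The windows of the 4 lowered list members with the largest differences that hold the core are shown because they carry the shared letters, on the strand of the gene with the match in capitals. They lie at chr5:92348840-92349139, minus strand, chr12:26456403-26456702, minus strand, chr4:156200769-156201068, minus strand and chr3:142496684-142496983, plus strand.
Cxcl10: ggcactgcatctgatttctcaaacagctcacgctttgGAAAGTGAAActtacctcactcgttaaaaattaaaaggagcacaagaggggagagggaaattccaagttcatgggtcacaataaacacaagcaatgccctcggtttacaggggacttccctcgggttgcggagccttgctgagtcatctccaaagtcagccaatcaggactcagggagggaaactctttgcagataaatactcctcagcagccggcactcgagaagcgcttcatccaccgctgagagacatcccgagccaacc
Rsad2: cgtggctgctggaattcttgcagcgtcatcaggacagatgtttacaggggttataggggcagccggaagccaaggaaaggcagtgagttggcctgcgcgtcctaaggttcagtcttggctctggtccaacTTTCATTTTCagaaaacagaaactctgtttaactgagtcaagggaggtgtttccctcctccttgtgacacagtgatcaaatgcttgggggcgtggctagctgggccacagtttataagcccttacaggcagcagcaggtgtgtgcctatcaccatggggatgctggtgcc
Isg15: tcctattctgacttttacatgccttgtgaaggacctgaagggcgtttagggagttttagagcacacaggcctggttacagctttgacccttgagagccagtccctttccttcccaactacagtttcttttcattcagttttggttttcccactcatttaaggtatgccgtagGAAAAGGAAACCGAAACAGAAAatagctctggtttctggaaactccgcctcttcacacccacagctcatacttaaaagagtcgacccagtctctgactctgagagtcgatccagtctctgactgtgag
Gbp5: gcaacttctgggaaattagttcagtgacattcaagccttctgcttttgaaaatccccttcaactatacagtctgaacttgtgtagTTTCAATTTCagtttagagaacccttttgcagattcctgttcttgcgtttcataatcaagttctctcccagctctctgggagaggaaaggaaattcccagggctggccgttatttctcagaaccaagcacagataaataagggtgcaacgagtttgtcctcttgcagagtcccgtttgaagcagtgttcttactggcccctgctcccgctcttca
Counted from the start site, the match spans -213 to -204 in Cxcl10, -120 to -111 in Rsad2 and -165 to -156 in Gbp5. Isg15 holds 3 overlapping matches, the first beginning at -78 and the last ending at -57.

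For the receptor's own element, the full palindrome, AGAACA and TGTTCT with any 3 bases between them, was in 3 of all windows and in 0 of the called genes, and its 6-letter arm AGAACA, on either strand, was in 15.8% of the raised genes, 13% of the lowered ones, 15.4% of those tested and 19% of all windows. The 3 named raised genes with the largest differences that hold the arm are shown, with the arm in capitals so that a reader can see how the matches are placed. They lie at chr7:126676369-126676668, minus strand, chr4:63362199-63362498, plus strand and chr12:76819047-76819346, minus strand.
Sult1a1: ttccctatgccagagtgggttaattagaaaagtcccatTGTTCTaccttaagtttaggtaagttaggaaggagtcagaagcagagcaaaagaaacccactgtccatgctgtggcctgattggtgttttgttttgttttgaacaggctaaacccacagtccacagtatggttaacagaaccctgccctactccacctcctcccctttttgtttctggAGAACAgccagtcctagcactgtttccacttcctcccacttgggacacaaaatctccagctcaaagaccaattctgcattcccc
Orm2: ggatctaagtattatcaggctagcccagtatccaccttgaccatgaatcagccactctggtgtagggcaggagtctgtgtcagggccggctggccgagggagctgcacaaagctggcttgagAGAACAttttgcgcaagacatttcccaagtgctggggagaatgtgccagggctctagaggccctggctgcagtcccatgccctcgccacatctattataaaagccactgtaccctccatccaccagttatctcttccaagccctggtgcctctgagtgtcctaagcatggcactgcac
Rab15: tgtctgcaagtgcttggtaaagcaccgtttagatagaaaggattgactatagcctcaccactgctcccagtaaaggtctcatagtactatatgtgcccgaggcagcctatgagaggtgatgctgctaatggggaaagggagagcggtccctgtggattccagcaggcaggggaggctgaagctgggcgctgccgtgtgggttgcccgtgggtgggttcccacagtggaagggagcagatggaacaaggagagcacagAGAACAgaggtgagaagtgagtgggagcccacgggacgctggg
Sult1a1 holds the arm once on each strand, at -212 to -207 and at -34 to -29. Orm2 holds it at -128 to -123, and Rab15 at 8 to 13 bases after the start.

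Inflammatory cytokines fell in 4 of 18 cases and none rose (22.2% called, beside 3.5% of all genes), with a median of -0.30. Only 10 of them were detected on all 4 Dex and EtOH arrays, with 4 lower and a median of -0.52. Il1a, the alarmin interleukin 1 alpha, had signals of 70.2 and 133 on the Dex arrays, against 394 and 328 on the EtOH arrays (-1.89 ± 0.27, adjusted p = 0.0034). Il1b had 493 and 479 with Dex, against 1594 and 1492 with EtOH (-1.67 ± 0.16, adjusted p = 5.54e-04). Tnf, which encodes tumour necrosis factor, had 948 and 682 with Dex, against 2068 and 2214 with EtOH (-1.41 ± 0.19, adjusted p = 0.00274). These 3 pairs of arms were well apart and kept their calls without any 1 array. Il1rn, the receptor antagonist that opposes both interleukins, fell as well (2766 and 3331 with Dex, against 8145 and 7678 with EtOH), while the decoy receptor Il1r2 rose. Il6, Il10, Il12a and Il27 were not above background in 1 or both arms and gave no fold. Of 15 chemokines 3 were called (20%, beside 3.5% of all genes). Cxcl10 fell, and Ccl6 (1.22 ± 0.19) and Ccl9 (1.06 ± 0.19), CC chemokines of mouse myeloid cells, rose. Ccl9 lost its call without Dex replicate 1 or EtOH replicate 2. In the authors' processed values Ccl6 (0.91) and Ccl9 (0.94) lost their calls, Ccl6 also without background correction (0.91). The monocyte attractants Ccl7 (-0.76 ± 0.19) and Ccl12 (-0.87 ± 0.18) passed the adjusted p but not 2-fold, and Ccl2 (-0.29 ± 0.23) passed neither.

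The sensors and relays upstream of these cytokines held 2 called genes. The share called was 3.7% of the Toll-like list and 5% of the NF-kB list, near the 3.5% of all genes. Of 27 Toll-like receptor and signalling genes Cd180, a TLR4-related surface protein, fell, with 760 and 706 with Dex, against 2105 and 2194 with EtOH (-1.55 ± 0.17, adjusted p = 7.41e-04). Tlr4 itself differed by 0.57 ± 0.19 (adjusted p = 0.0994), and Tlr2 (0.79 ± 0.18) and Tlr8 (0.90 ± 0.20) passed the adjusted p but not 2-fold. Of 20 NF-kB genes Nfkbib, an IkB protein, fell (-1.15 ± 0.22), a call lost without Dex replicate 1 or either EtOH array. The subunit gene Rela differed by -0.38 ± 0.20. None of 13 prostaglandin and leukotriene genes and none of 9 Fc receptors was called, with medians of -0.17, which was 0.01 under median scaling, and 0.00.

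Genes for presenting antigen and for T cell help fell in 3 of 17 cases (17.6% called, beside 3.5% of all genes). Cd40, the receptor for T cell help, had signals of 913 and 1233 on the Dex arrays, against 3951 and 3836 on the EtOH arrays (3.67-fold lower, adjusted p = 5.96e-04). Cd274, the inhibitory ligand PD-L1, had 2001 and 2237 with Dex, against 5701 and 5300.3 with EtOH (-1.38 ± 0.18, adjusted p = 0.00233). Cd86, a ligand of CD28, had 877 and 1279 with Dex, against 2739 and 2061 with EtOH (-1.17 ± 0.22), a call lost without Dex replicate 1 or EtOH replicate 1. Stimulating and inhibitory ligands were thus both among the called members. The class II chains H2-Aa (-0.39 ± 0.17), H2-Ab1 (-0.26 ± 0.21) and H2-Eb1 (-0.29 ± 0.18) were not called, and none of 17 class I genes was.

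Among 11 immediate-early, AP-1 and EGR factors 2 EGR genes fell (18.2% called, beside 3.5% of all genes). Egr2, a zinc finger factor of growth and of alternative activation, had signals of 80.3 and 99.6 on the Dex arrays, against 652 and 588 on the EtOH arrays (6.93-fold lower, adjusted p = 5.16e-05), the largest fitted fall of all genes. Egr1 had 149.8 and 174 with Dex, against 291 and 467 with EtOH (-1.19 ± 0.23, adjusted p = 0.0147), and lost its call without Dex replicate 1 or EtOH replicate 2. Fos (0.19 ± 0.19), Jun (0.16 ± 0.23) and Junb (0.10 ± 0.22) had overlapping arms. Of 10 alternative activation genes Egr2 fell and Chil3 rose (20% called).

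Other large falls were spread over unrelated functions. Cdkn1c, the cell cycle inhibitor p57, had signals of 1629 and 2120 with Dex, against 11752 and 10088 with EtOH (-2.55 ± 0.20, adjusted p = 1.31e-04). Rasgrp1, an activator of Ras, had 187 and 154 with Dex, against 1055 and 838 with EtOH (-2.47 ± 0.19, adjusted p = 1.34e-04). That value is of its brightest probe, and the mean of its detected probes gave -0.88 (adjusted p = 0.0169) and no call. Ch25h, which makes 25-hydroxycholesterol, had 124 and 155 with Dex, against 415 and 771 with EtOH (-2.03 ± 0.28, adjusted p = 0.00299). In all 3 both EtOH arrays stood well above both Dex arrays. Vegfc, a lymphatic growth factor (-2.11 ± 0.18), Flrt3, an adhesion receptor (-2.10 ± 0.24), Plpp3, a lipid phosphatase (-1.98 ± 0.23), the phosphatase gene Ptpn14 (-1.97 ± 0.21), the serine protease gene Prss46 (-1.96 ± 0.20) and the secreted glycoprotein gene Olfml3 (-1.81 ± 0.20) fell. Cd28, best known as a T cell receptor for co-stimulation, differed by -1.91 ± 0.35 although none of the T cell markers on the array was detected, and lost its call without Dex replicate 1 or either EtOH array.

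Of 19 matrix proteases and their relatives 2 rose, Adamtsl4 and Mmp8, and 3 fell (26.3% called, beside 3.5% of all genes). Mmp8, a collagenase of neutrophils, had 1163 and 847 with Dex, against 192 and 396 with EtOH (1.85 ± 0.31, adjusted p = 0.00774), and lost its call without Dex replicate 1. Mmp13, another collagenase, had 877 and 1263 with Dex, against 3757 and 3458 with EtOH (-1.78 ± 0.21, adjusted p = 0.00134). Serpinb2, an inhibitor of plasminogen activators, was at least 1.48-fold lower, and the gelatinase gene Mmp9 differed by -1.01 ± 0.18 with its call lost without Dex replicate 1, EtOH replicate 1 or Dex plus LPS replicate 2. The 2 collagenases thus differed in opposite directions.

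Metabolic, cell cycle and apoptosis lists held 1 to 3 calls each, which was 12.5% of the fatty acid list, 14.3% of the TNF receptor and apoptosis list, 10.7% of the cell cycle list, 9.52% of the cholesterol list, 5.26% of the glycolysis list and 3.7% of the glutathione and iron list, beside 3.5% of all genes. Of 21 cholesterol genes Apoc2, an apolipoprotein that activates lipoprotein lipase, rose (1.63 ± 0.20) and Ch25h fell. Of 16 fatty acid genes Acadl, a mitochondrial acyl-CoA dehydrogenase (1.06 ± 0.18), and Dgat2, which makes triglyceride (at least 1.52-fold higher), were called, Acadl not without Dex replicate 1, nor with the mean of its detected probes (0.31, adjusted p = 0.446), and Dgat2 not without any 1 array other than Dex replicate 2. Of 27 glutathione, iron and oxidative stress genes Slc40a1, the iron exporter ferroportin, fell (2955 and 2812 with Dex, against 6401 and 7352 with EtOH, -1.25 ± 0.19, adjusted p = 0.00404). Of 28 cell cycle genes Tk1 (1.22 ± 0.20) and Anln (1.09 ± 0.21) rose and Cdkn1c fell. The list median of 0.31 was 0.03 in the authors' processed values. Tk1 and Anln lost their calls without background correction (0.61 and 0.58), with a background offset of 50 (0.96 and 0.88) and in the processed values (0.45 and 0.45). Anln lost its call also without Dex replicate 2 or EtOH replicate 2. Of 21 TNF receptor and apoptosis genes Cd40 and Bcl2, a survival factor (-1.22 ± 0.17), fell, Bcl2 without a call under median scaling (-0.82), without background correction (-0.77), in the authors' processed values (-0.79) or with the mean of its probes (-0.96), and the death factor Bmf (1.01 ± 0.24) was called higher only with all arrays or without Dex replicate 2. Among 19 glycolysis and hypoxia genes Ddit4 was the only call. None of 28 lysosomal genes, 26 respiratory chain subunits and 15 heat shock genes was called, with medians of 0.01, 0.26 and -0.13, the last of them 0.17 under median scaling.

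**Figure D4:**
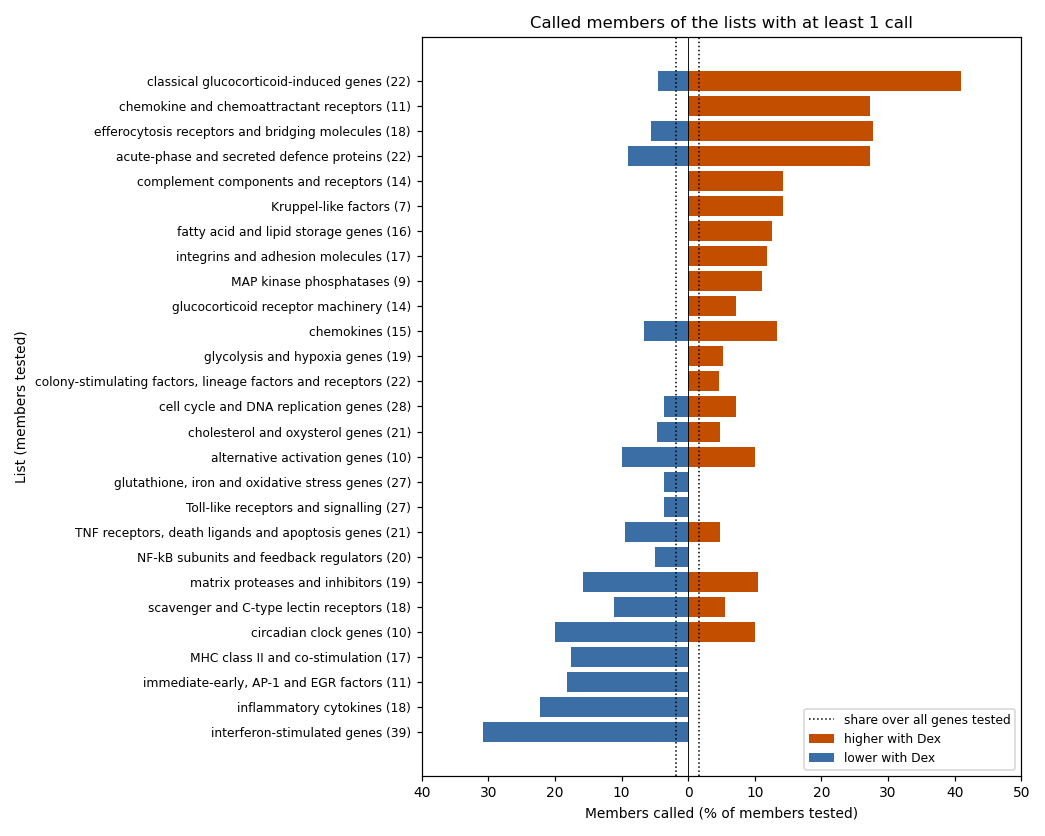
Share of tested members called higher (orange, to the right) and lower (blue, to the left) with Dex for the 27 lists with at least 1 call, in percent of the members tested, whose number stands in brackets. Dotted lines mark the shares over all genes tested, 1.6% higher and 1.9% lower. The glucocorticoid-induced list is at the top with 9 of 22 higher and the interferon-stimulated list at the bottom with 12 of 39 lower.

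A second setting for Dex was the pair of arms with LPS, which share no array with the arms above. At 6 h both comparisons came from the same fit, with joint quantile normalization and 1 spread estimate per gene. Their calls are therefore not independent. There Dex plus LPS was compared with LPS, and 101 genes were higher (1.3%) and 190 lower (2.44%) after 6 h. Of the 125 genes raised without LPS 29 were also raised with it, 23.2% of the first list and 28.7% of the second. Of the 148 lowered genes 50 were also lowered with it, 33.8% and 26.3% of the lists. By sign alone, 106 of the 125 were above 0 with LPS and 137 of the 148 below 0, where 4431 of all 7796 genes were above 0. After 3 h of LPS, in the authors' processed intensities with background still in them, 27 of the 125 were also higher, 69.2% of the 39 genes higher there (0.5%), and 33 of the 148 also lower, 40.7% of the 81 lower there (1.04%). The labels of the 3 h experiment are in doubt, since its arrays labelled unstimulated read 63692 and 62661 for Tnf, although Fkbp5 read 1701 and 1851 on those labelled Dex plus LPS, against 230.1 and 263 on those labelled LPS. Taking these labels as given, 20 raised and 25 lowered genes were called in all 3 settings. Fkbp5, F13a1, Per1, Klhl6, Orm2, Hp, Tsc22d3, Klf9 and Dusp1 were among the raised ones, and Egr2, Cdkn1c, Flrt3, Ch25h, Mmp13, Clec7a, Cd180 and Il1rn among the lowered ones.

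Vcam1 and Kat2b were called higher without LPS and lower with it, and 0 genes the other way round. Vcam1 had signals of 267 and 277.5 on the Dex plus LPS arrays, against 856 and 876 on the LPS arrays (-1.67). With Dex it stood between its EtOH and its LPS level, with and without LPS. Kat2b, an acetyltransferase, had 149.7 and 180 with Dex, against 63.8 and 93.2 with EtOH (1.09 ± 0.27), and 139.7 and 140.6 with Dex plus LPS, against 245 and 413 with LPS (-1.18). Without LPS it lost its call without any 1 of the Dex arrays, EtOH replicate 1 and the Dex plus LPS arrays, and with the mean of its probes (0.80). The test of the difference between the Dex effects passed for both (-3.96 ± 0.31, adjusted p = 0.00113, for Vcam1 and -2.27 ± 0.38, adjusted p = 0.0388, for Kat2b). In all 43 genes passed that test, 14 with a more positive Dex effect with LPS (0.18%) and 29 with a more negative one (0.372%), but these counts rest on single arrays: without LPS replicate 1 they were 1 and 3, and without Dex replicate 2 they were 233 and 166.

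**Figure D5:**
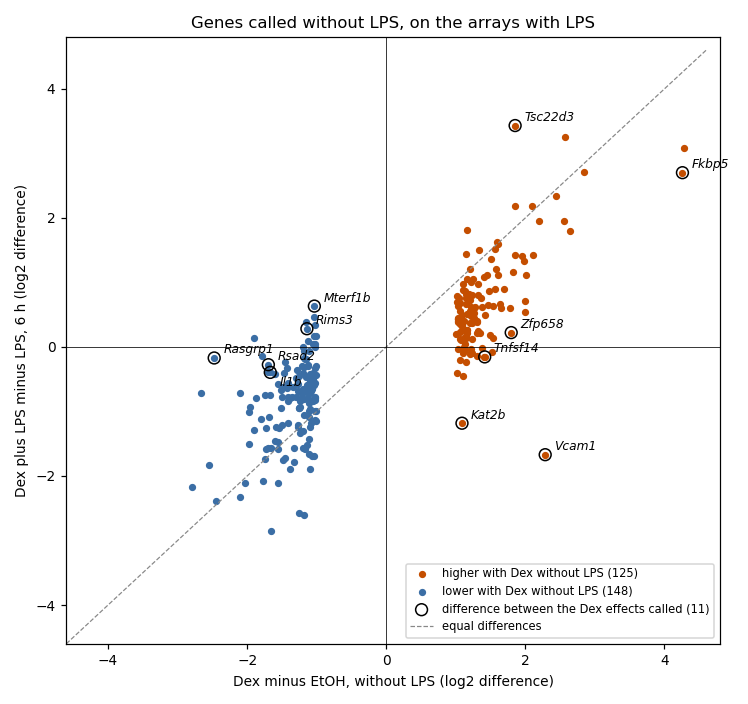
Dex plus LPS minus LPS log2 difference after 6 h (y axis) against the Dex minus EtOH log2 difference without LPS (x axis) for the 273 called genes, orange where raised and blue where lowered. Circles mark 11 genes whose Dex effects differed in the test between the settings, and the dashed line marks equal differences. Most points lie in the quadrants of equal sign, with Vcam1 and Kat2b below 0 at the right.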

How the data were processed

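RNA of macrophages was hybridised to Illumina mouse bead arrays with 25697 probes. The 6 h table holds bead intensities with detection p-values that the authors deposited without normalization, per the file headers, and GenomeStudio is named in the submitters' processing notes. The deposited processed values are log2 values for the 6 h arrays and normalized intensities for the 3 h arrays, and the cubic spline table holds the authors' normalized intensities. The fit used limma 3.58.1 in R 4.3.3: normexp background correction from the detection p-values with an offset of 16, quantile normalization and log2. Probes detected (p under 0.05) on both arrays of at least 1 of the 4 groups of 6 h arrays were eligible, and 11320 were kept. Of all probes 23846 carried 1 gene symbol, 0 several and 1851 none, and 23839 were matched to RefSeq. A gene with several probes took its brightest, and in 0 of 2032 such genes were probes called in opposite directions. All 8 arrays of the 6 h experiment shared 1 estimate of the spread, with Benjamini-Hochberg adjustment of the p-values over 7796 genes. The files name no slides, and 56 columns of values were not used.

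The members and the gene lists were chosen with earlier results of these data known. Named genes were the 15 largest differences in each direction, up to 8 called and 4 bright uncalled members of each list, all members of the first 2 lists, bounds of at least 3-fold and the 8 largest differences between settings in each direction. Kat2b, the other genes in the closing observations and uncalled genes beyond that number were chosen after their values were seen. Same-numbered Dex and EtOH arrays did not deviate together (correlation -0.222 across genes). With 2 arrays per group this cannot tell whether the numbers pair them, and the main fit left them unpaired. Differences between arms in the processed 6 h values followed those of the unnormalized log2 values with a slope of 1.00 and a shift of -0.357. The processed values have another level in each array, with medians of -0.20 to 0.16, and how they were centred is not known.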

Additional observations from a re-analysis of the deposited data

Results flagged for a closer look

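The Dex effect with 6 h of LPS was set against that without LPS in the limma fit, and 24 named genes are given here because the test of that difference passed, by the same adjusted p and fold as above. Values are the Dex plus LPS minus LPS log2 difference less the Dex minus EtOH one.

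The Dex effect was more negative with LPS for the adhesion molecule gene Vcam1 (-3.96), the interferon beta gene Ifnb1 (-3.15), the factor gene Klf4 (-2.61), Clic5 (-2.40), Mtus1 (-2.37), Gstt4 (-2.31), Kat2b (-2.27) and Mycl (-2.22). It was also more negative for Zfp658 (-1.57), the cytokine gene Tnfsf14 (-1.57) and Fkbp5 (-1.56), which differed by 2.70 with LPS and by 4.26 without. It was more positive for the pentraxin gene Ptx3 (2.48), Rasgrp1 (2.30), Rgcc (2.21), Radx (2.16), the receptor gene Trem1 (1.97), Mbp (1.96), Gramd4 (1.69), Zfp94 (1.67), Mterf1b (1.67), Tsc22d3 (1.58), Rims3 (1.42), Rsad2 (1.42) and Il1b (1.27). Il1b and Rsad2 were saturated on the LPS arrays, so their values with LPS are limited there. Other values are fitted against probes not above background and are no measured sizes. Clic5, Gstt4, Mycl, Ptx3 and Trem1 were not above background with Dex or with EtOH, so their Dex effect without LPS was not measurable. Nor were Ifnb1 and Gramd4 above background with Dex, Tnfsf14 with EtOH, Clic5 and Gstt4 with Dex plus LPS, Gramd4 with LPS and Tnfsf14 with either of these. Of the 43 genes that passed over all genes, 11 were also called without LPS.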

How the results depend on the processing

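Calls without LPS were 125 higher and 148 lower. Median scaling gave 407 and 64, no background correction 59 and 70, the authors' processed values 57 and 70, only the 4 Dex and EtOH arrays 57 and 69, no fold minimum 245 and 278, and the authors' cubic spline values 0 and 0. Leaving out 1 array in turn gave 76 to 275 higher and 97 to 324 lower, both extremes set by the Dex arrays. The replicate block gave 118 and 141, and the crossed pairing, chosen after seeing the data, 132 and 152. The 43 genes whose Dex effects differed between settings were 14 more positive and 29 more negative with LPS. The more negative count was 77 under median scaling, 51 without background correction, 70 in the processed values and 47 with the mean of a gene's probes. Both counts were 26 and 60 with an offset of 50, 6 and 10 without a filter on detection, 5 and 4 with detection on all 4 arrays, 6 and 10 with the replicate block and 0 and 0 in the spline values. Leaving out 1 array gave 1 to 233 and 3 to 166. Where values differ, the cause was not tested. The slide as a block was not run because the files name no slides. The number of arrays and the signal over background limit dim genes, for which bounds are given. Ranks in the spline values correlated at only 0.885 to 0.923 with those of the same-labelled unnormalized arrays. Over all genes tested, the Dex minus EtOH differences of the spline values correlated at 0.0379 with those of the main fit. The spline values are therefore not shown to be another processing of the same measurements. Among the named genes 43 log2 differences had the other sign in the spline values, none of them called there, and 0 in any other setting. Raised genes with values below 0 there were Adamtsl4 (-0.0352), Anln (-0.0594), Apoc2 (-0.143), Ddit4 (-0.174), Dusp1 (-0.00442), F13a1 (-0.104), Fkbp5 (-0.0626), Il1r2 (-0.156), Itga6 (-0.192), Mertk (-0.0714), Mmp8 (-0.192), Orm1 (-0.0768), P2ry12 (-0.0638), P2ry13 (-0.103), Rab15 (-0.0525), Sult1a1 (-0.096), Tgfbr2 (-0.147), Tk1 (-0.112), Tnfsf14 (-0.152) and Vcam1 (-0.183). Lowered genes with values above 0 there were Camp (0.031), Cd180 (0.0338), Cd274 (0.0309), Cd28 (0.116), Cd40 (0.167), Cd86 (0.0284), Ch25h (0.117), Dbp (0.027), Flrt3 (0.0637), Gbp5 (0.26), Ifit2 (0.384), Ifit3 (0.224), Il1rn (0.018), Isg15 (0.164), Ltf (0.0488), Mmp13 (0.0527), Mx1 (0.17), Oasl1 (0.0218), Olfml3 (0.0669), Prss46 (0.0304), Ptpn14 (0.0719), Rasgrp1 (0.0123) and Rsad2 (0.233).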

Other observations

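The called genes given next, with roles in detoxification or its transport, were picked after their values were seen, and nothing is said of that pathway as a whole. Adh7, an alcohol dehydrogenase that also acts on retinol, had signals of 551 and 555 on the Dex arrays, against 1908 and 1810 on the EtOH arrays (-1.75 ± 0.18, limma adjusted p = 6.53e-04). The glutathione transferase gene Gsta1 had 50.6 and 91.8 with Dex, against 338 and 412 with EtOH (-2.45 ± 0.26), and Gsta2 was at least 1.61-fold lower. In both genes the EtOH arrays were the higher ones. Gstm2 (-1.09 ± 0.19), the epoxide hydrolase gene Ephx1 (-1.11 ± 0.21) and the exporter gene Abcc1 (-1.47 ± 0.24) also fell. Gstm2 lost its call without Dex replicate 1 and Ephx1 without Dex replicate 1 or EtOH replicate 1, and both under median scaling (-0.80 and -0.72). Gstm2 lost it also with the mean of its probes (-0.99), and Ephx1 and Abcc1 without background correction (-0.94 and -0.81) and in the authors' processed values (-0.86 and -0.89). The exporter gene Abcc3 rose, with 1309 and 1358 with Dex, against 335 and 603 with EtOH (1.57 ± 0.25), as did the sulfotransferase gene Sult1a1.

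Of the 273 called genes 67, 33 higher and 34 lower, kept their call under all 18 other settings apart from the cubic spline table, which gave 0 calls. The 18 include leaving out each array in turn, and dropping the fold minimum, which could end no call. A gene not tested in a setting counted as lost, and detection on all 4 Dex and EtOH arrays left 219 of the 273 tested. Sult1a1 and Il1r2, not above background with EtOH, kept theirs under 17 of the 18.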
